A study of Mus musculus with 5 samples.

Results

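HSF1 peaks that lay between genes but close to one were examined in mouse primary cortical neurons. They were chosen by position alone. The summit of a peak had to lie inside no protein-coding gene, more than 1000 bp from the nearest protein-coding gene end and at most 100 kb from it. Of 6956 peaks on chromosomes 1 to 19 and X in 2 peak lists, 1552 met this rule. The list of untreated neurons gave 683 of 3312 and the list of NMDA-treated neurons gave 869 of 3644. They are called intergenic peaks here. HSF1 was mapped by ChIP-seq, in which DNA crosslinked to a protein is pulled down with an antibody and sequenced. The neurons were wild type, came from Swiss-Webster embryos at embryonic day 16 and were used on day 13 of culture. In the NMDA group, 50 µM of this glutamate receptor agonist was applied for 10 min and was followed by 20 min without drug. Control neurons had no treatment. Each condition had 2 ChIP libraries, and 1 input library from untreated neurons served both. The deposited peaks form 1 list per condition without values for single libraries, which leaves differences between the lists untested and every value without a replicate error. Intervals are exact 95% intervals for counting error only. Depth per library is unknown, and peak lists do not allow the cell type to be checked against its markers. All positions are on GRCm38.

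HSF1 is the main transcription factor of the heat shock response. In unstressed cells much of it is held inactive by chaperones. On activation it forms trimers that bind heat shock elements, which are inverted repeats of the unit nGAAn, and it raises transcription of chaperone genes. Elements of this kind lie at promoters and also at enhancers away from genes. In neurons, strong activity through NMDA receptors also switches on immediate early genes, many of which are controlled by enhancers between genes.

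The sequence under a peak could be read where an intergenic peak reached the start of a noncoding gene. RefSeq windows of 300 bases on GRCm38.p6, from 250 before a gene start to 50 after it, met 6 control and 15 NMDA peaks. All 24 windows belonged to genes that the annotation used here classes as lncRNA genes, the class for long RNAs without a protein. The 5 stretches below were chosen for these traits. They carry the highest fold enrichment of such a peak in each list, and the NMDA peak of a site in both lists. They also carry sequence at the start of the abundant nuclear RNA Malat1, and pairs of heat shock units. Each is the part of the window that the peak covers, on the strand of the gene. Capitals mark pairs of units, GAANNTTC or TTCNNGAA.
Gm40925 (NMDA peak, chr13:41677067-41677145, + strand): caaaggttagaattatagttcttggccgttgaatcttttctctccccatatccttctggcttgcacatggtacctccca
Snhg16 (NMDA peak of a site in both lists, chr11:116671410-116671709, + strand): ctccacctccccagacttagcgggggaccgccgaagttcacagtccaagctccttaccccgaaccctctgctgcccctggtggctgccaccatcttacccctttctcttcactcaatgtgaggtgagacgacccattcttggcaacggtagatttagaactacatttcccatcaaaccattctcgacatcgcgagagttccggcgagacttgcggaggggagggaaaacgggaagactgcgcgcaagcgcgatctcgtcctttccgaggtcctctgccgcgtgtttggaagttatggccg
Malat1 (NMDA peak, chr19:5802708-5802922, - strand): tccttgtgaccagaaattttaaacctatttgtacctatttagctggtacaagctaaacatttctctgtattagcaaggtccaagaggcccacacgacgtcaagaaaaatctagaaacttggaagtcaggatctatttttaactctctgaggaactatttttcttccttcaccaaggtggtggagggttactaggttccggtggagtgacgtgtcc
D730003I15Rik (NMDA peak, chr1:191224204-191224503, + strand): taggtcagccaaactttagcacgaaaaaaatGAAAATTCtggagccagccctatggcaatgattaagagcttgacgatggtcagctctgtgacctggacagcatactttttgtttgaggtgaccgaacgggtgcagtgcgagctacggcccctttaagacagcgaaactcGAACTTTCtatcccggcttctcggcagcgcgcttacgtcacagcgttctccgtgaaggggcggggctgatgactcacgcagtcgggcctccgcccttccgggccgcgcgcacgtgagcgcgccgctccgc
Gm6639 (control peak, chr3:35666114-35666270, - strand): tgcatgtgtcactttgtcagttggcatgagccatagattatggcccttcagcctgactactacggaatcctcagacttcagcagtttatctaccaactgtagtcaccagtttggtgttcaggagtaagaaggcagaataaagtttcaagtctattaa

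The Gm40925 peak had 6.72-fold enrichment, with its summit inside the gene, 142 bp from the transcript start of this window and 380 bp from the outer gene end. Tmem170b, the nearest protein-coding gene, lay 35884 bp away. The Malat1 peak had 3.43-fold enrichment, with its summit 261 bp before the gene start. At Snhg16, a host gene of small nucleolar RNAs, the NMDA peak had 3.33-fold enrichment and a summit 94 bp from the start. The overlapping control peak had 2.57-fold enrichment and began at position 116671825, beyond the end of the printed stretch. Another host gene of this kind, Snhg5, had an NMDA peak of 3.23-fold (chr9:88523094-88523431) with a summit 370 bp before its start. The D730003I15Rik peak had 2.96-fold enrichment, and its nearest protein-coding gene was Atf3, a stress-induced transcription factor gene, at 41037 bp. The Gm6639 peak had 3.18-fold enrichment and lay 87903 bp from Atp11b. By fold the Gm40925 peak ranked 13 among the NMDA intergenic peaks.

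The D730003I15Rik stretch held 2 pairs of units, and the other 4 printed stretches held none. Both strands were searched, and the motifs of 2 and 3 units can overlap. A pair of units, GAANNTTC or TTCNNGAA, was in 4 of the 24 windows (16.7%) and in 15.1% of all 32851 RefSeq windows of this length. A full element of 3 units is the first of these pairs followed by NNGAA, or the second followed by NNTTC. It was in none of the 24 and in 0.603% of all windows. With 1 mismatch allowed in the 9 fixed bases, 4 of the 24 windows (16.7%) held it, against 7.22% of all windows. The 24 windows are few, some belong to the same gene, and this difference was not tested. All of these counts are over whole windows. In those of Gm17382, Snhg5 and Gm19497 the pair of units lay outside the part that the peak covers. The windows hold the summit of 4 control and 5 NMDA peaks, and the other intergenic peaks were not searched.

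The location of the peaks was compared with the bases available. The intergenic stretches that meet the same rule, called ground here, made up 797 Mb, or 30.7% of the span between the outermost protein-coding genes of each chromosome. Intergenic peaks made up 20.6% of the control list (19.3 to 22.04%) and 23.8% of the NMDA list (22.5 to 25.3%). This gives 0.856 peaks per Mb of ground (0.793 to 0.923) in the control list and 1.09 (1.02 to 1.16) in the NMDA list. The NMDA list is also longer as a whole. Ground farther than 100 kb from genes held 0.941 and 1.13 peaks per Mb, and gene interiors held 1.46 and 1.59. Gene ends held 6.26 control and 4.67 NMDA peaks per Mb. Ground near genes thus had the lowest value of the 4 kinds of location in both lists, but its interval overlaps that of the more distant ground. Without chromosome X, which was left out after its values were seen, ground near genes held 0.931 control (0.863 to 1.004) and 1.19 NMDA peaks per Mb (1.11 to 1.27). Distant ground then held 1.02 (0.946 to 1.10) and 1.23 (1.15 to 1.31), and the intervals overlap again.

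Control peaks lay closer to genes than NMDA peaks did. The control peaks lay at a median of 20411 bp from a gene end (18089 to 24221) and the NMDA peaks at 27827 bp (25291 to 30832). Over the ground itself the median distance was 23681 bp. With noncoding genes counted as genes too, the rule selected a different set of 920 control and 1142 NMDA peaks. In that set the medians were 19027 bp for control and 20243 bp for NMDA peaks, so the gap between the lists was smaller. For the 683 and 869 intergenic peaks, the quartiles were 7555 and 47644 bp in the control list, and 10632 and 54025 bp in the NMDA list. Between 1 and 5 kb from a gene there were 125 control peaks (18.3%, 15.5 to 21.4%) and 101 NMDA peaks (11.6%, 9.57 to 13.9%), where 14.1% of the ground lies. Between 50 and 100 kb there were 155 control peaks (22.7%, 19.6 to 26.0%) and 256 NMDA peaks (29.5%, 26.4 to 32.6%), where 25.5% of the ground lies. The nearest bin thus held more control than NMDA peaks although the NMDA list is longer, and the farthest bin held more NMDA peaks. Per Mb of ground the control list went from 1.11 in the nearest bin to 0.763 in the farthest, and the NMDA list from 0.900 to 1.26. The intervals of these rates overlap between the lists in the 3 nearest bins and not in the 2 farthest. These rates also carry the greater length of the NMDA list. As shares of each list, the intervals do not overlap from 1 to 5 kb or from 50 to 100 kb. From 25 to 50 kb the shares were 22.5% (19.5 to 25.9%) for control and 24.6% (21.8 to 27.6%) for NMDA peaks, which overlap. At the limits of the rule, the control peaks just inside and just outside 1000 bp lay 1012 bp from Cyb5a (2.46-fold, chr18:84850221-84850761) and 989 bp from Leprotl1 (2.60-fold, chr8:34147592-34147888). The NMDA peaks there lay 1012 bp from Pom121l2 (2.80-fold, chr13:21980062-21980387) and 992 bp from Apbb2 (2.58-fold, chr5:66619932-66620193). At 100 kb they lay 99438 bp from Iftap (2.88-fold, chr2:101461189-101461437) and 100772 bp from Arhgef26 (2.57-fold, chr3:62237798-62238121) in the control list. In the NMDA list they lay 99810 bp from Cnbd1 (3.12-fold, chr4:18667903-18668326) and 100006 bp from Msr1 (2.37-fold, chr8:39443067-39443377).

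**Figure D1:**
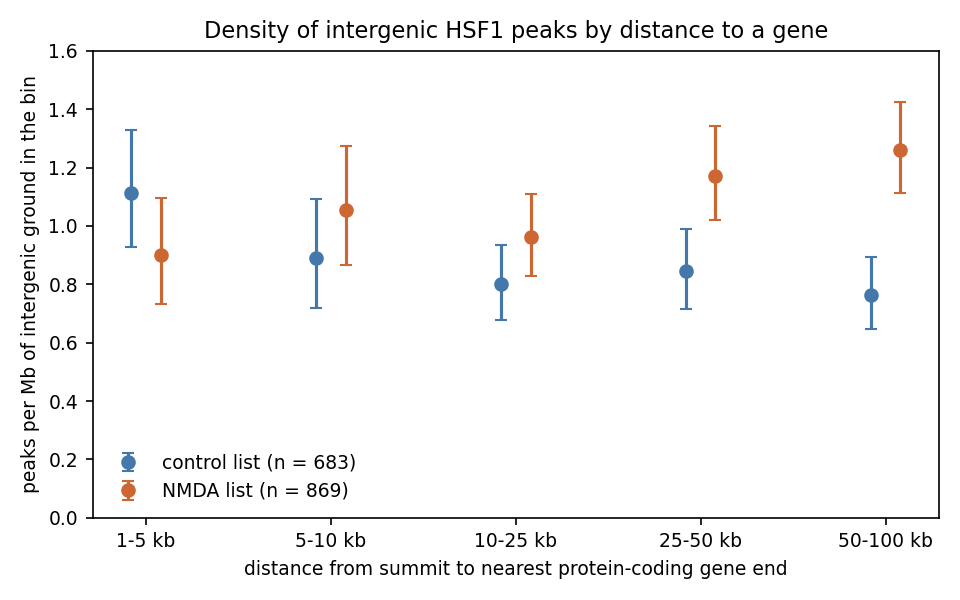
Intergenic HSF1 peaks per Mb of ground (vertical axis) in 5 bins of distance to the nearest protein-coding gene end (horizontal axis); points are the control list (n = 683) and the NMDA list (n = 869), bars are exact 95% Poisson intervals. Control density is highest at 1-5 kb (1.11 per Mb) and NMDA density at 50-100 kb (1.26 per Mb).

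Most intergenic peaks were of low fold enrichment, which is the authors' ratio of ChIP signal to background at the summit. Control peaks had a median fold of 2.67 (2.61 to 2.67) and NMDA peaks one of 2.75 (2.69 to 2.80), each list on its own scale. The control folds ran from 1.56 to 4.93 with an upper quartile of 2.88. The NMDA folds ran from 1.48 to 19.5 with an upper quartile of 3.03. The folds take few values. In the control list 68 peaks share a fold of 2.67, 59 share 2.57 and 56 share 2.77. In the NMDA list 78 share 2.80, 75 share 2.47 and 68 share 2.58. Of the control peaks, 2 reached 4-fold (0.293%, 0.0355 to 1.05%), where the whole control list has 0.513%. Of the NMDA peaks, 51 did (5.87%, 4.40 to 7.64%), where the whole list has 4.99%. Both shares are near those of their whole lists. In NMDA peaks farther than 100 kb from genes the share was 2.99% (1.94 to 4.38%), and at gene ends it was 6.28% (4.02 to 9.28%). An authors' q below 0.05 was listed for 474 control peaks (69.4%), against 68.9% of the whole list, and for 655 NMDA peaks (75.4%), against 76.3%. Fold differed little with distance. The bin medians were 2.57 to 2.67 for control and 2.69 to 2.80 for NMDA peaks. The highest share of NMDA peaks of at least 4-fold was in the bin from 25 to 50 kb, with 20 of 214 (9.35%, 5.80 to 14.1%). It was 2.75% (0.571 to 7.83%) from 5 to 10 kb. The median width was 305 bp for control and 306 bp for NMDA intergenic peaks, and 466 bp for the 51 NMDA peaks of at least 4-fold.

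**Figure D2:**
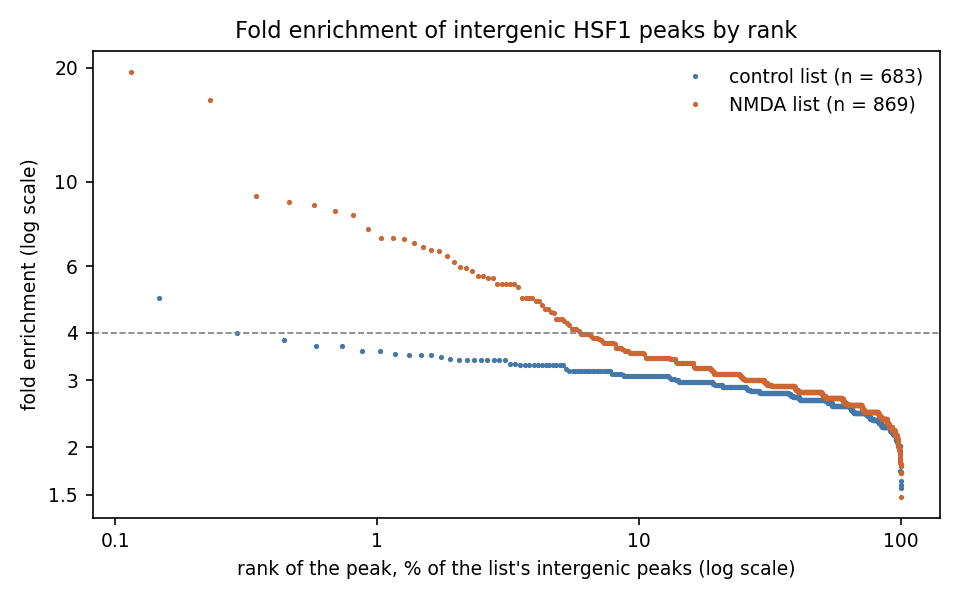
Fold enrichment of each intergenic peak (vertical axis, log scale) against its rank as a percentage of the list's intergenic peaks (horizontal axis, log scale); each point is 1 peak and the dashed line marks 4-fold. In the control list 2 of 683 peaks reach the line, and in the NMDA list 51 of 869 do.

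The highest NMDA intergenic peak lay 9758 bp from E2f6, which encodes a repressor of the E2F family, at chr12:16836109-16836961. It had 19.5-fold enrichment and a width of 853 bp, and the nearest control summit was 530887 bp away. A second NMDA peak lay 18048 bp from E2f6 with 4.09-fold enrichment (chr12:16844512-16845134). The next highest peak lay 74581 bp from Edn3, the endothelin 3 gene, at chr2:174858370-174858929, inside the lncRNA gene Gm14616. It had 16.4-fold enrichment and is the site with the highest control fold as well, at 4.93.

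The next 8 peaks had 7.10 to 9.16-fold enrichment. A 9.16-fold peak lay 10216 bp from Cotl1, an actin-binding protein gene (chr8:119798530-119799295). An 8.87-fold peak lay 5729 bp from Egr1, an immediate early transcription factor gene (chr18:34855142-34855786), on the lower-coordinate side. The nearest control summit was 77060 bp away. Cpeb4, which encodes an RNA-binding regulator of translation, had an 8.71-fold peak at 14155 bp (chr11:31949544-31950024). Zdhhc17, a palmitoyltransferase gene, had an 8.39-fold peak at 27002 bp (chr10:111036898-111037242). Lonrf2 had 8.17-fold at 11331 bp (chr1:38847839-38848324). Creb3l1, which encodes a membrane-bound transcription factor, had 7.53-fold at 43564 bp (chr2:92067531-92067924). Stmnd1 had 7.10-fold at 19433 bp (chr13:46253891-46254613). Zfp664, a zinc finger gene, had the same 7.10-fold at 11797 bp (chr5:124900207-124900808), inside the lncRNA gene Gm40320.

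The NMDA peaks that reached 4-fold numbered 51 and had 49 nearest genes on 16 chromosomes, at a median of 28710 bp (1539 to 74581). E2f6 and Meox1 each had 2 of them, those of Meox1 with 7.07-fold (chr11:101919720-101920265) and 4.73-fold (chr11:101842195-101842594). Of the 51, 42 lay more than 10 kb from a protein-coding gene, 16 lay inside a noncoding gene and 6 within 1000 bp of a noncoding gene end. Among all 869 NMDA intergenic peaks, 11.6% lay 1 to 5 kb from a protein-coding gene and 12.5% lay 5 to 10 kb away. Inside a noncoding gene lay 18.4% of the 869, and 9.67% lay within 1000 bp of a noncoding gene end. A difference of the 51 from these shares was not tested. A control peak overlapped 3 of the 51 and had its summit within 10 kb of 4. Over all 869 NMDA intergenic peaks, 54 (6.21%) had a control summit within 10 kb.

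In the control list 2 peaks reached 4-fold. After the Edn3 site, the highest control peak had 4.00-fold enrichment and lay 11013 bp from Mogat2, an acyltransferase gene (chr7:99249481-99249872). Plekhm3 followed with 3.82-fold at 21886 bp (chr1:64978622-64978819). Adcyap1, the gene of the neuropeptide PACAP, had a 3.70-fold peak at 22867 bp (chr17:93175148-93175497). Magi3, a membrane scaffold gene, also had 3.70-fold, at 55976 bp (chr3:104276244-104276544). Lrrc74a had 3.59-fold at 55602 bp (chr12:86824136-86824791), and the small GTPase gene Rnd3 had the same fold at 64776 bp (chr2:51065531-51065781). Trappc9, of a vesicle tethering complex, had 3.51-fold at 7742 bp (chr15:73068845-73069409). Btn1a1 had 3.49-fold at 3357 bp (chr13:23453520-23453900), and so did Napg at 5133 bp (chr18:62972586-62972871). None of these 9 peaks had an NMDA summit within 10 kb, and the closest was 18364 bp from the Mogat2 site. Over all 683 control intergenic peaks, 49 (7.17%) had one.

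Sites common to both lists were few. Of the 683 control intergenic peaks 21 (3.07%, 1.91 to 4.66%) overlapped an NMDA peak, near the 2.84% of the whole control list. Of the 869 NMDA intergenic peaks 21 (2.42%, 1.502 to 3.67%) overlapped a control peak, near the 2.55% of the whole list. The partners were all intergenic peaks themselves, so these are 21 sites. Their summits lay a median of 75 bp apart (3 to 425). The listed fold was higher in the NMDA list at 14 sites and in the control list at 7, with each list on its own scale. The control folds at these sites ran from 1.59 to 4.93 with a median of 2.67, and the NMDA folds from 1.48 to 16.4 with a median of 2.81. The folds of the lists overlap except at the strongest NMDA sites.

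The site near Edn3 had 4.93-fold enrichment in control neurons (chr2:174858494-174858887) and 16.4-fold after NMDA, with summits 3 bp apart. The site near Zfp664 had 2.67-fold in control and 7.10-fold in NMDA neurons (11873 bp, chr5:124900400-124900584 in control). The site near Mcur1 had 2.88-fold in control and 6.88-fold in NMDA neurons (23288 bp, chr13:43583569-43583791 in control), and Mcur1 encodes a regulator of the mitochondrial calcium uniporter. At these 3 sites the NMDA value passed 4-fold. In the next 6 by NMDA fold it did not. There, Osbp had 2.67-fold in control and 3.44-fold in NMDA neurons (16772 bp, chr19:12010758-12011084 in control). Gm6034 had 2.57-fold in control and 3.33-fold in NMDA neurons (2413 bp, chr17:36060846-36061200 in control). Prcd had 2.57-fold in control and 3.33-fold in NMDA neurons (3711 bp, chr11:116671825-116672181 in control), and this is the site at the start of Snhg16. Frmd4b had 3.18-fold in control and 3.23-fold in NMDA neurons (8634 bp, chr6:97278088-97278366 in control). Klra7 had 2.01-fold in control and 3.19-fold in NMDA neurons (11171 bp, chr6:130207280-130207584 in control). Gm14461 had 2.67-fold in control and 3.10-fold in NMDA neurons (77404 bp, chr2:78160009-78160310 in control).

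Of the other common sites, Pdzrn4 had 3.18-fold in control and 2.01-fold in NMDA neurons (34799 bp, chr15:92806472-92806833 in control). Mmadhc had 2.67-fold in control and 2.90-fold in NMDA neurons (7417 bp, chr2:50272109-50272542 in control). Aurkb had 2.53-fold in control and 2.81-fold in NMDA neurons (4035 bp, chr11:69041381-69041682 in control), and this gene encodes a mitotic kinase. The histone gene H2bc13 had 2.57-fold in control and 2.69-fold in NMDA neurons (4865 bp, chr13:21710608-21711199 in control). Myl3 had 2.88-fold in control and 2.58-fold in NMDA neurons (11889 bp, chr9:110781202-110781918 in control). Znrf4 had 2.77-fold in control and 2.31-fold in NMDA neurons (3143 bp, chr17:56507990-56508221 in control). Phactr1 had 2.76-fold in control and 2.47-fold in NMDA neurons (56871 bp, chr13:42623202-42623616 in control). Gpc6 had 2.65-fold in control and 2.47-fold in NMDA neurons (8560 bp, chr14:116916202-116916692 in control).

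The last 3 sites combined low fold with a place in both lists. The site near Col19a1 (24831 bp, chr1:24612593-24612912 in control) had folds of 2.03 and 2.11, and a −log10 q of 228 and 235, the highest of all intergenic peaks. Of the sites near Cwc22, the nearer had 1.63-fold in control and 1.83-fold in NMDA neurons (17043 bp, chr2:77963292-77963700 in control). The farther had 1.59-fold in control and 1.48-fold in NMDA neurons (76208 bp, chr2:78022193-78022631 in control). Whether reads can be placed uniquely at these sites, or near Klra7, which belongs to a family of similar genes, was not examined.

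**Figure D3:**
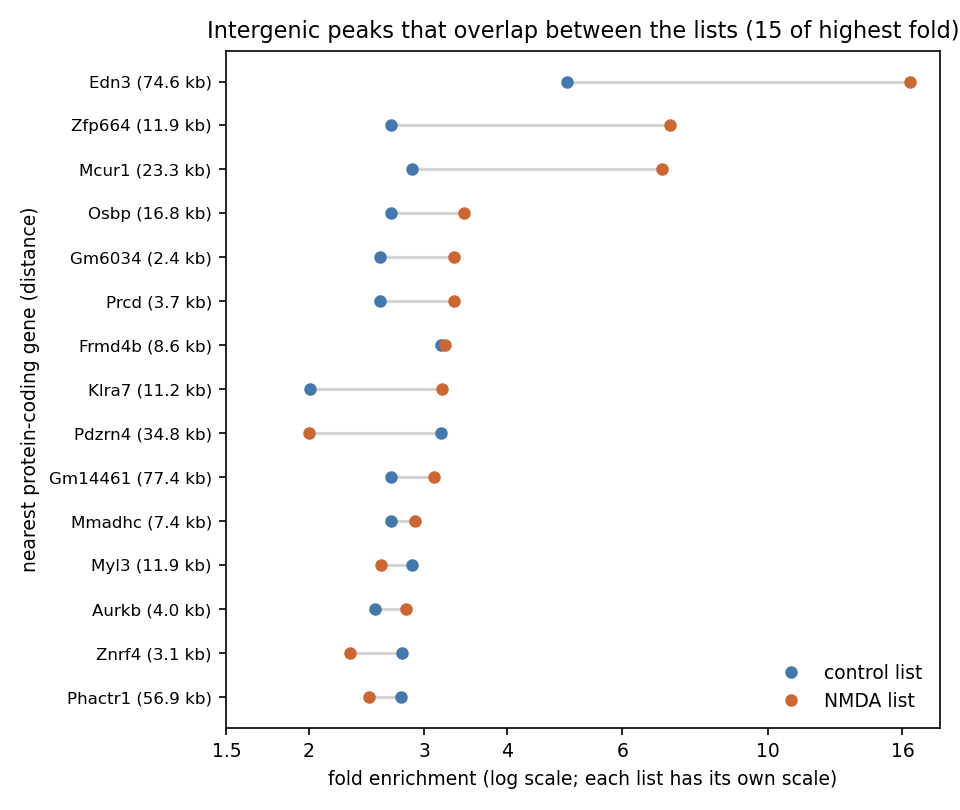
Fold enrichment (horizontal axis, log scale) of the 15 sites of highest fold among the intergenic sites present in both lists, each named by its nearest protein-coding gene with the control distance (vertical axis); blue points are control values, orange points NMDA values, joined by a line. The 3 top sites (Edn3, Zfp664 and Mcur1) have NMDA folds from 6.88 to 16.4, and the others lie below 4-fold in both lists.

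Neighbouring genes were mostly different between the lists. The control peaks had 628 nearest genes (2.90% of 21631 protein-coding genes) and the NMDA peaks had 793 (3.67%). Of these, 107 were named by both lists, which is 17.0% of the control genes and 13.5% of the NMDA genes. In terms of gaps between protein-coding genes, 616 held a control peak, 771 an NMDA peak and 124 both, of 16527 gaps with ground. In those 124 gaps the closest control and NMDA summits lay a median of 33988 bp apart, and in 19 gaps they lay within 1 kb. Most peaks stood alone. Of the control intergenic peaks 6.59% had another control peak within 10 kb, and of the NMDA ones 4.14% had another NMDA peak.

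Over both lists 31 genes were nearest to 3 or more intergenic peaks, and 25 of these had peaks of both lists. Over all nearest genes, 17.0% of the control and 13.5% of the NMDA genes were named by both lists. Counting peaks over both lists favours genes with peaks in both. A site in both lists also counts as 2 peaks, as at Cwc22, Klra7, Mmadhc and Zfp664. Genes with the most peaks are given here. Cwc22, a splicing factor gene, had 3 control and 4 NMDA peaks with folds from 1.48 to 1.98, 15161 to 80272 bp away. Klra7, of the natural killer receptor family, had 4 and 1, with folds from 2.01 to 3.19 at 1544 to 11218 bp. Mef2c, an activity-regulated transcription factor gene, had 4 control peaks of 2.26 to 3.18-fold (chr13:83430849-83431045, chr13:83463279-83463706, chr13:83714370-83714801, chr13:83742672-83743163) and 1 NMDA peak of 3.12-fold. Itgb8, an integrin gene, had 2 control peaks (chr12:119078691-119078984, chr12:119134414-119134688) and 3 NMDA peaks (chr12:119076740-119077024, chr12:119112644-119112938, chr12:119309450-119309733) with folds from 2.25 to 2.92. Mmadhc had 1 and 3 with folds from 2.58 to 2.90. Trib2 had 2 in each list with folds from 1.94 to 2.43, and 1700025G04Rik had 2 in each with folds from 2.37 to 3.05. Zfp664 had 2 control peaks and 1 NMDA peak. Tle3, a corepressor gene, had a control peak of 3.29-fold at 2082 bp (chr9:61370117-61370373). Its NMDA peaks had 6.38-fold at 23268 bp (chr9:61441329-61441948) and 3.23-fold at 94396 bp (chr9:61277796-61278101). Except for the 7.10-fold peak of Zfp664 and the 6.38-fold peak of Tle3, all peaks of the genes named here were below 4-fold.

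Gene lists were compared as peaks per Mb of ground nearest to their genes, since genes with long flanks have more room for a peak. Over all protein-coding genes the values are the 0.856 and 1.09 per Mb given above. Heat shock and chaperone genes have little ground, with a median of 7.10 kb per gene, and 2 of 56 genes (3.57%) had an intergenic peak in each list. After NMDA, Hsp90aa1, the inducible HSP90 gene, had a peak of 5.38-fold at 3050 bp (chr12:110687771-110688480). In control neurons the genes were Hspa9 (2.98-fold, 67475 bp, chr18:35021684-35022030), which encodes the mitochondrial HSP70, and the cochaperone gene Bag3 (2.98-fold, 25943 bp, chr7:128497558-128497809). The Hsp90aa1 peak passed 4-fold and neither control peak did. In the control list 0.293% of all intergenic peaks reached 4-fold, and in the NMDA list 5.87% did, so control peaks rarely pass this threshold near any gene. The rate of the heat shock and chaperone genes was 1.59 per Mb in each list (0.193 to 5.76), and this interval includes the rate over all genes.

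Immediate early genes had 3 peaks near 3 of 44 genes in the control list (0.974 per Mb, 0.201 to 2.85) and 7 near 7 genes in the NMDA list (2.27 per Mb, 0.914 to 4.68). Both intervals include the rate over all genes. The control genes were Rgs2 (2.88-fold, 2135 bp, chr1:144006170-144006401), Nfil3 (2.88-fold, 28836 bp, chr13:53011617-53011846) and Dusp1 (2.81-fold, 1592 bp, chr17:26503872-26504116). After NMDA, the Egr1 peak described above had 8.87-fold. The transcription factor genes Klf4 (3.42-fold, 83566 bp, chr4:55615895-55616130) and Atf3 (2.96-fold, 41037 bp, chr1:191224102-191224503) followed, with Bdnf (3.00-fold, 42138 bp, chr2:109769053-109769311), which encodes a neurotrophin that activity induces. The secreted matrix protein genes Ccn2 (2.90-fold, 26698 bp, chr10:24568648-24568860) and Ccn1 (2.90-fold, 45303 bp, chr3:145695166-145695447) and the phosphatase gene Dusp6 (2.47-fold, 79884 bp, chr10:99347246-99347610) completed the group. No gene of this group had intergenic peaks in both lists, and 9 of the 10 peaks were below 4-fold. Among all nearest genes, 17.0% of the control ones and 13.5% of the NMDA ones were named by both lists. A fold of at least 4 was reached by 0.293% of all control intergenic peaks and by 5.87% of the NMDA ones. With so few genes and peaks, neither count sets this group apart.

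Neural transcription factor genes had 20 peaks near 13 of 71 genes in the control list (18.3% of genes) and 13 peaks near 12 genes in the NMDA list (16.9%). The control rate of 2.24 per Mb (1.37 to 3.46) lay above the rate over all genes, and the interval of the NMDA rate of 1.46 (0.775 to 2.49) includes it. No test of these differences was made. The control peaks included 4 near Mef2c and 2 each near Neurod1 and Pou3f2. Among the highest control peaks were those near Mef2c (3.18-fold, 47653 bp, chr13:83714370-83714801), Zfhx4 (2.98-fold, 48801 bp, chr3:5169299-5169621), Neurod1 (2.81-fold, 56415 bp, chr2:79512944-79513255), Pou3f3 (2.77-fold, 2756 bp, chr1:42702841-42703132) and Meis2 (2.67-fold, 40545 bp, chr2:116108000-116108290). The highest NMDA peaks were near Mef2c (3.12-fold, 3208 bp, chr13:83500674-83501047), Sox4 (3.01-fold, 33327 bp, chr13:28915491-28915802), Dlx2 (3.01-fold, 89654 bp, chr2:71636297-71636641), Pou3f2 (2.92-fold, 44283 bp, chr4:22532528-22532793), Zeb2 (2.80-fold, 20102 bp, chr2:45137421-45137676) and Neurog2 (2.80-fold, 6733 bp, chr3:127625865-127626228). None of the 33 peaks reached 4-fold, where 0.293% of all control and 5.87% of all NMDA intergenic peaks did. With so few peaks, this count does not set the group apart.

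Neuronal adhesion and axon guidance genes had 9 control peaks (0.909 per Mb, 0.415 to 1.72) and 17 NMDA peaks (1.72 per Mb, 0.9997 to 2.75) near 9 and 16 of 66 genes. The highest NMDA peaks were near the netrin receptor gene Unc5d (3.57-fold, 10772 bp, chr8:29230288-29230567), Cntn3 (3.23-fold, 54560 bp, chr6:102108620-102108861), Epha3 (2.96-fold, 92262 bp, chr16:63956311-63956729), Plxna4 (2.90-fold, 28195 bp, chr6:32616228-32616518), Lrrtm4 (2.90-fold, 15145 bp, chr6:80825219-80825443) and Cdh8 (2.80-fold, 18592 bp, chr8:99435986-99436406). The highest control peaks were near Robo2 (3.08-fold, 74830 bp, chr16:73816891-73817226), Cntn3 (3.08-fold, 85330 bp, chr6:102649780-102650101), Sema3a (2.98-fold, 20411 bp, chr5:13623549-13624143), Cdh2 (2.77-fold, 29043 bp, chr18:16838083-16838353), Cdh10 (2.57-fold, 65543 bp, chr15:18753254-18753512) and Cntn1 (2.57-fold, 75993 bp, chr15:91974819-91975279). Glutamate receptor and synaptic genes had 1 control peak, near Grm3 (2.09-fold, 22552 bp, chr5:9747736-9748008), and 6 NMDA peaks near 5 genes. Among these were peaks near the AMPA receptor genes Gria1 (3.44-fold, 5971 bp, chr11:57005299-57005742) and Gria2 (3.33-fold, 12907 bp, chr3:80668298-80668638), and near the adhesion gene Nlgn1 (2.41-fold, 42045 bp, chr3:26374793-26375116). The synaptotagmin gene Syt1 had 2 peaks, of 2.72-fold at 94890 bp (chr10:109105717-109105962) and 2.21-fold at 69863 bp (chr10:109080710-109080998). The rates were 0.249 per Mb (0.00630 to 1.39) and 1.49 (0.548 to 3.25), whose intervals overlap.

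Olfactory receptor genes, a family used by sensory neurons of the nose, had 11 control and 7 NMDA peaks over 25.02 Mb of ground. Their rates of 0.440 per Mb (0.219 to 0.787) and 0.280 (0.112 to 0.577) lay below those over all genes. The highest of these peaks were near Olfr61 (3.08-fold, 6710 bp, chr7:140630835-140631078) in the control list and Olfr262 (2.80-fold, 1256 bp, chr19:12239405-12239590) in the NMDA list. Of the 29 topoisomerase, break repair and cohesin genes, Parp1 (2.20-fold, 27625 bp, chr1:180540748-180541294) had an NMDA peak, and none had a control peak. Proteasome genes had control peaks near Psmc6 (3.18-fold, 3875 bp, chr14:45325789-45326080) and Psmd6 (2.35-fold, 1217 bp, chr14:14110892-14111132) and an NMDA peak near Psma1 (2.58-fold, 41090 bp, chr7:114317154-114317551). The neuronal marker gene Rbfox3 had 2 NMDA peaks, of 3.42-fold at 1745 bp (chr11:118913038-118913510) and 2.58-fold at 29714 bp (chr11:118941167-118941408). Another marker of neurons, Nefl (2.58-fold, 16235 bp, chr14:68067449-68067792), had 1. The astrocyte genes Slc1a3 (2.98-fold, 6574 bp, chr15:8717235-8717633) and Aldh1l1 (2.46-fold, 24999 bp, chr6:90525626-90525881) and the endothelial gene Cldn5 (2.67-fold, 71774 bp, chr16:18704865-18705213) had control peaks. The 15 neuron markers thus had 0 control (up to 3.36 per Mb) and 2.73 NMDA peaks per Mb (0.564 to 7.99). The 10 astrocyte markers had 2.41 (0.292 to 8.72) and 0 (up to 4.45), and the 9 endothelial markers had 1.55 (0.0394 to 8.66) and 0 (up to 5.74). All of these intervals include the rates over all genes. Markers of microglia and of the oligodendrocyte lineage had none in either list, on 0.149 and 0.396 Mb of ground, where a count of 0 allows up to 24.7 and 9.31 peaks per Mb.

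**Figure D4:**
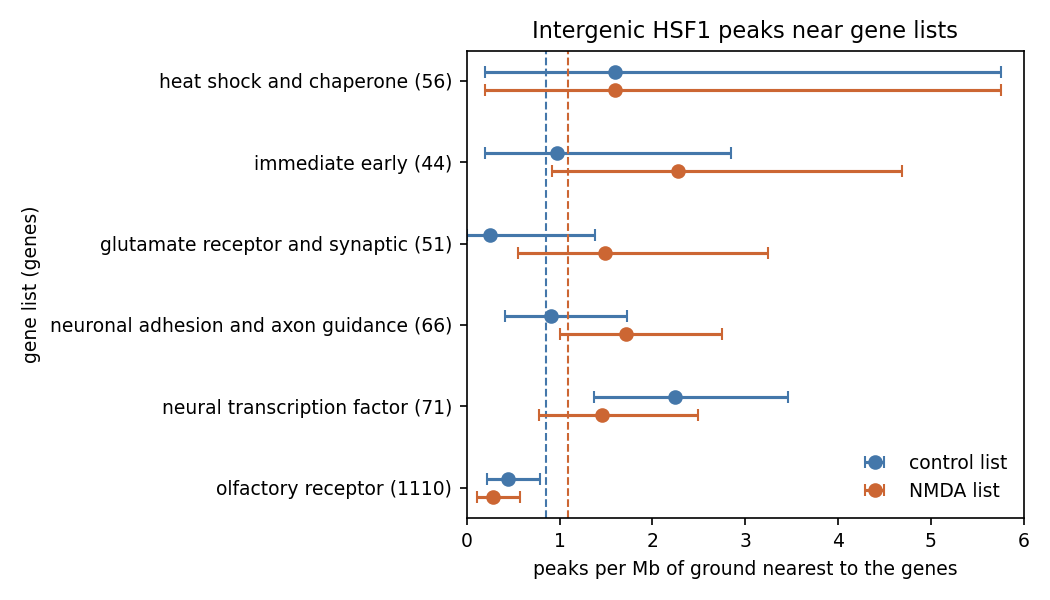
Intergenic HSF1 peaks per Mb of ground nearest to the genes of 6 lists (vertical axis, with the number of genes); points are the control and NMDA lists, bars exact 95% Poisson intervals and dashed lines the rates over all protein-coding genes (0.856 and 1.09). The neural transcription factor genes lie above the control line (2.24 per Mb), and olfactory receptor genes lie below both lines.

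Some intergenic peaks lay in noncoding genes, which cover 15.3% of the ground. The summit was inside one for 125 control peaks (18.3%, 15.5 to 21.4%) and 160 NMDA peaks (18.4%, 15.9 to 21.2%), and the gene was an lncRNA gene for 120 and 148 of them. Within 1000 bp of a noncoding gene end lay 63 control peaks (9.22%, 7.16 to 11.6%) and 84 NMDA peaks (9.67%, 7.78 to 11.8%), on 5.52% of the ground. Both shares at noncoding ends are above that of the ground. Of the peaks at noncoding ends, 43 control and 49 NMDA peaks were at lncRNA genes.

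The spread over chromosomes was uneven. Chromosome X has 65.2 Mb of ground and held 1 intergenic peak in each list. Over all locations it held 3 control and 5 NMDA peaks, so it was sparse in the whole lists too. Control density on autosomes was lowest on chromosome 17 (0.563 per Mb) and highest on chromosome 13 (1.40). NMDA density was lowest on chromosome 17 (0.688) and highest on chromosome 16 (1.64). The NMDA list had more intergenic peaks on 16 of the 19 autosomes, the same number on chromosome 12 and fewer on chromosomes 4 and 18. The whole NMDA list was also the longer one on most autosomes. Its exceptions were chromosomes 12 (182 control and 150 NMDA peaks), 13 (197 and 183) and 17 (111 and 96). For intergenic peaks chromosome 11 had the widest gap, with 24 control peaks (0.671 per Mb, 0.430 to 0.999) and 58 NMDA peaks (1.62 per Mb, 1.23 to 2.10). Over all locations chromosome 11 held 145 control and 185 NMDA peaks. It was picked for its gap, so the difference has no test.

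**Figure D5:**
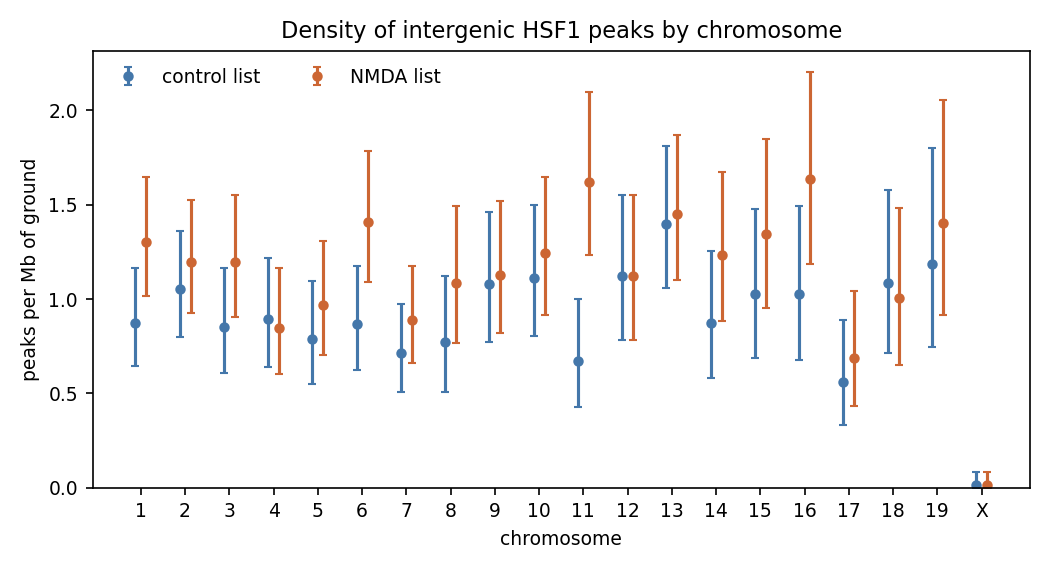
Intergenic HSF1 peaks per Mb of ground (vertical axis) on each chromosome (horizontal axis); points are the control and NMDA lists and bars exact 95% Poisson intervals. The lists differ most on chromosome 11 (0.671 and 1.62 per Mb), and chromosome X holds 1 peak in each list.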

How the data were processed

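HSF1 ChIP-seq was analysed from the 2 deposited peak lists, 1 per condition. FastQC, Trimmomatic, BWA, SAMtools and MACS2 and the builds mm10 and GRCm38.p6 are named, without versions, per the submitters' processing notes. How the libraries were merged into a list: not given in the sources used here. For each peak the authors deposited a score, a fold (ratio of ChIP signal to background at the summit) and −log10 p and q values. Fold describes and ranks peaks within a list.

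Of 3316 control and 3646 NMDA peaks, 4 and 2 on other sequences were left out. Summits were compared with the ends of 21631 protein-coding genes of GRCm38.p6 (RefSeq). The strand of the nearest gene was known for 78.0% and 76.3% of intergenic peaks, so a check of upstream against downstream sides is void. Overlap meant at least 1 bp. Shares have Clopper-Pearson intervals, rates exact Poisson intervals and medians exact binomial rank intervals, all at 95%. No significance test was made. The search for heat shock elements was planned around summits but was run on RefSeq promoter windows, as no genome sequence was used here.

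The items named were the 10 intergenic peaks of highest fold per list, all sites found in both lists, peaks nearest to chaperone, immediate early and topoisomerase genes, up to 6 peaks by fold for other gene lists, the first 10 genes nearest to 3 or more peaks, and peaks at the distance limits. Some items that this rule selects are not reported here. The lncRNA genes shown with sequence, and chromosome 11, were chosen after their values were seen. The rule and gene lists were chosen with earlier results of these data known. The assignment to genes was tested on simulated data. Python 3.11.15, pandas 2.3.3, NumPy 2.4.6 and SciPy 1.17.1 were used.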

Additional observations from a re-analysis of the deposited data

How the results depend on the processing

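Of 139 values under other settings, 111 stayed within the interval of the reported value, or within 1.5 times a reported count. Of these, 50 are rates of gene lists, most with few peaks and wide intervals. With only peaks of q below 0.05, median folds were 2.77 (control) and 2.90 (NMDA), 7.79% of NMDA peaks had at least 4-fold, 63 genes were named by both lists, and synaptic genes (control) and topoisomerase genes (NMDA) were at 0 peaks per Mb. With the upper part of each list by −log10 q (from its median upwards), there were 388 control and 461 NMDA peaks with 369 and 440 nearest genes, 43 of them in both lists, median folds of 2.81 and 3.01, and 11.1% of NMDA peaks at 4-fold. These settings keep fewer and stronger peaks by construction. With genes of all kinds in place of protein-coding ones, 1.74% of control and 1.31% of NMDA peaks overlapped the other list, the NMDA median distance was 20243 bp and 4.03% of NMDA peaks had at least 4-fold. An inner limit of 5000 bp moved the median distances to 28551 and 33324.5 bp. An outer limit of 50 kb moved them to 12821.5 and 16908 bp and left 59 genes in both lists. With an overlap of at least 50% of both peaks, 1.90% and 1.496% were shared. Without chromosome X, chosen after seeing the data, intergenic peaks per Mb were 0.931 (control) and 1.19 (NMDA). Allowing 1 mismatch, 16.7% of windows held an element. Except for what these limits do by construction, the cause was not tested. The NMDA median distance was the longer one in each setting that recomputed it. Single replicates could not be left out, since both libraries of a condition enter 1 list. No paired analysis was possible because single libraries have no values of their own. Sequencing depth is unknown, and what it limits was not tested.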
